A study of Mus musculus with 6 samples.

Results

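The genes described here build cholesterol and fatty acids: 15 enzymes of sterol synthesis, 10 of fatty acid synthesis, elongation and desaturation, and 4 genes that regulate the pathway or carry its product. They were chosen by name as members of the pathway, and each was measured by 1 probe set, the brightest on average of those that the platform annotation gives to that gene alone. All 29 were found among the 19938 genes measured in this way. Cells make cholesterol from acetyl-CoA through mevalonate and squalene. They make fatty acids from the same precursor by chain building, elongation and the insertion of double bonds. Transcription of both branches is driven by the factors SREBP-1 and SREBP-2, which are held in the endoplasmic reticulum by INSIG proteins while sterols are plentiful and released when sterols run low. Dividing cells need both products for new membrane.

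Expression was measured on whole-transcript arrays in satellite cells, the stem cells of skeletal muscle, as log2 values. The 3 cultured samples (n = 3) were satellite cells grown for 5 days on collagen and laminin in F10 medium with 20% horse serum and daily additions of 5 ng/ml of basic fibroblast growth factor. The 3 fresh samples (n = 3) were satellite cells isolated by fluorescence-activated sorting from resting muscle, without culture. All came from the hindlimb, abdominal and triceps muscles of C57BL/6J mice aged 2 months, with no transgene or drug named in the labels. The cells had been sorted for beta-1 integrin and CXCR4 and against CD45, CD31, CD11b, Ter119 and Sca1. The labels speak of 3 mice without saying which arrays came from which, and the spread that the p-values rest on may therefore be technical in part.

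Markers of the labelled cells were present: 11 of 12 satellite cell markers lay above background on the cultured arrays and 12 of 12 on the fresh arrays, among them Pax7 and Myod1. Of these 12 markers 8 fell in culture by the test described below, which called 3.37% of all genes lower. The 12 markers summed on the linear scale to between 617.1 and 1090.7 in cultured cells and between 2047.4 and 2809.6 in fresh cells. Background was set from 1190 odorant and pheromone receptor genes, at the 95th percentile of their group means, a log2 level of 3.23 in cultured cells and 3.16 in fresh cells. Of 7 measured fat cell markers, 2 lay above background in cultured cells and 1 in fresh cells, and they summed on the linear scale to between 57.6 and 60.2 in cultured cells and between 45.7 and 51.5 in fresh cells. Adipoq and Fabp4, which define fat cells, were within background in both groups, as were Lep, Pparg and Retn. Plin1 was above background in both groups, at means of 4.09 in cultured and 3.52 in fresh cells. Cidec was above it in cultured cells only, at 3.45 against 3.01. For Plin1 and Cidec all cultured values lay above the fresh ones, but neither gene passed the test described below. Of 7 measured fibroblast markers 3 fell in culture, Dcn, Dpt and Col3a1, and the list summed to between 105.4 and 113.5 in cultured cells and between 395.3 and 684 in fresh cells. Of 5 measured Schwann cell markers 1 fell, Pmp22, by 2.05 on the log2 scale. The other Schwann markers did not pass, and the median log2 fold change of the list was -0.01. The list summed to between 73 and 87.6 in cultured cells and between 148.9 and 173 in fresh cells. Endothelial and leukocyte markers were mostly within background, with 1 of 6 and 1 of 7 above it on the cultured arrays and 1 of 6 and 2 of 7 on the fresh arrays. The endothelial marker above background was Egfl7 in cultured cells and Tek in fresh cells. Tek fell in culture, at a log2 fold change of -0.76. The 1 measured erythroid marker was within background on the cultured arrays. The part of these cells in the results was not tested. Bright genes were dimmer on cultured replicates 2 and 3. For genes with a mean between 5 and 7 on the log2 scale, the median difference from the fresh mean was 0.13, -0.53 and -0.26 on cultured replicates 1, 2 and 3. For means between 7 and 9 it was 0.04, -1.30 and -0.91, and between 11 and 16 it was -0.09, -3.33 and -2.87. The test described below called 15.8%, 25.8% and 14.3% of the genes in these bands lower, against 3.37% of all genes. In RNA from many cells, fewer cells of a type and less RNA per cell cannot be told apart.

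Of the 29 genes, 1 passed the test in culture against fresh and none was lower. That gene was Fads2, the delta-6 desaturase of polyunsaturated fatty acids, which rose 1.79-fold. The test was limma on the log2 values with Benjamini-Hochberg adjustment over all 19938 genes, at an adjusted p of 0.05. Among all genes tested 4.32% passed in either direction, 0.953% higher in culture and 3.37% lower. The median log2 fold change was 0.19 over the 15 sterol genes, 0.17 over the 10 fatty acid genes and 0.07 over the 4 regulators, against 0.04 over all genes tested. Without cultured replicate 1 the median was 0.02 for the sterol genes and 0.04 for the fatty acid genes.

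**Figure D1:**
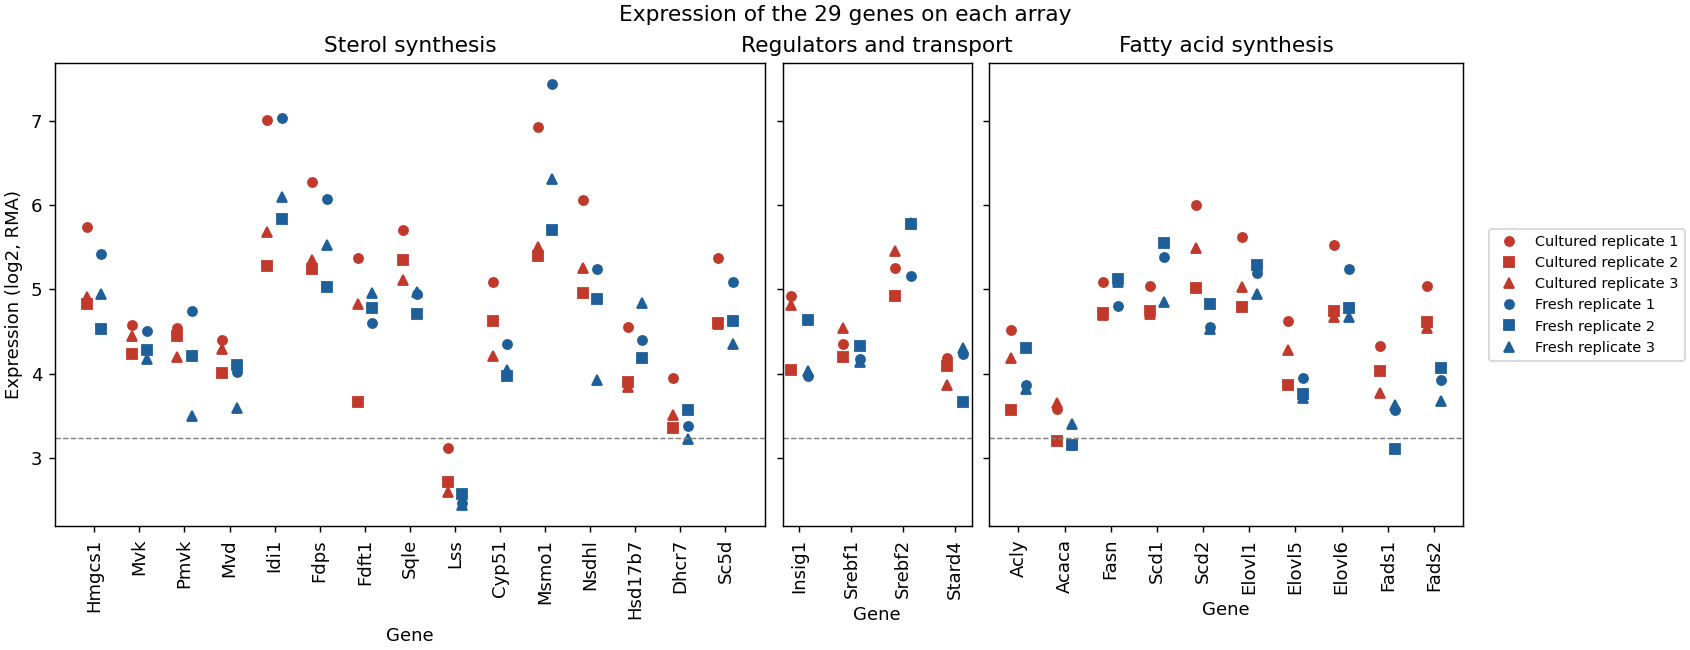
Log2 expression (vertical axis) of each of the 29 genes on the 3 cultured arrays (red, left of each gene) and the 3 fresh arrays (blue, right), with circles, squares and triangles for replicates 1, 2 and 3; the dashed line is the background level of 3.23 on the cultured arrays. Cultured replicate 1 is the highest cultured array for all 15 sterol genes, and Lss lies under the line on all 6 arrays.

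For 19 of the 28 genes above background, the 95% confidence interval of the fold change lay wholly within 2-fold in either direction. The interval of 6 genes reached a 2-fold rise and that of 3 genes a 2-fold fall. Those 3 were Msmo1, Idi1 and Fdft1 of the sterol branch.

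**Figure D2:**
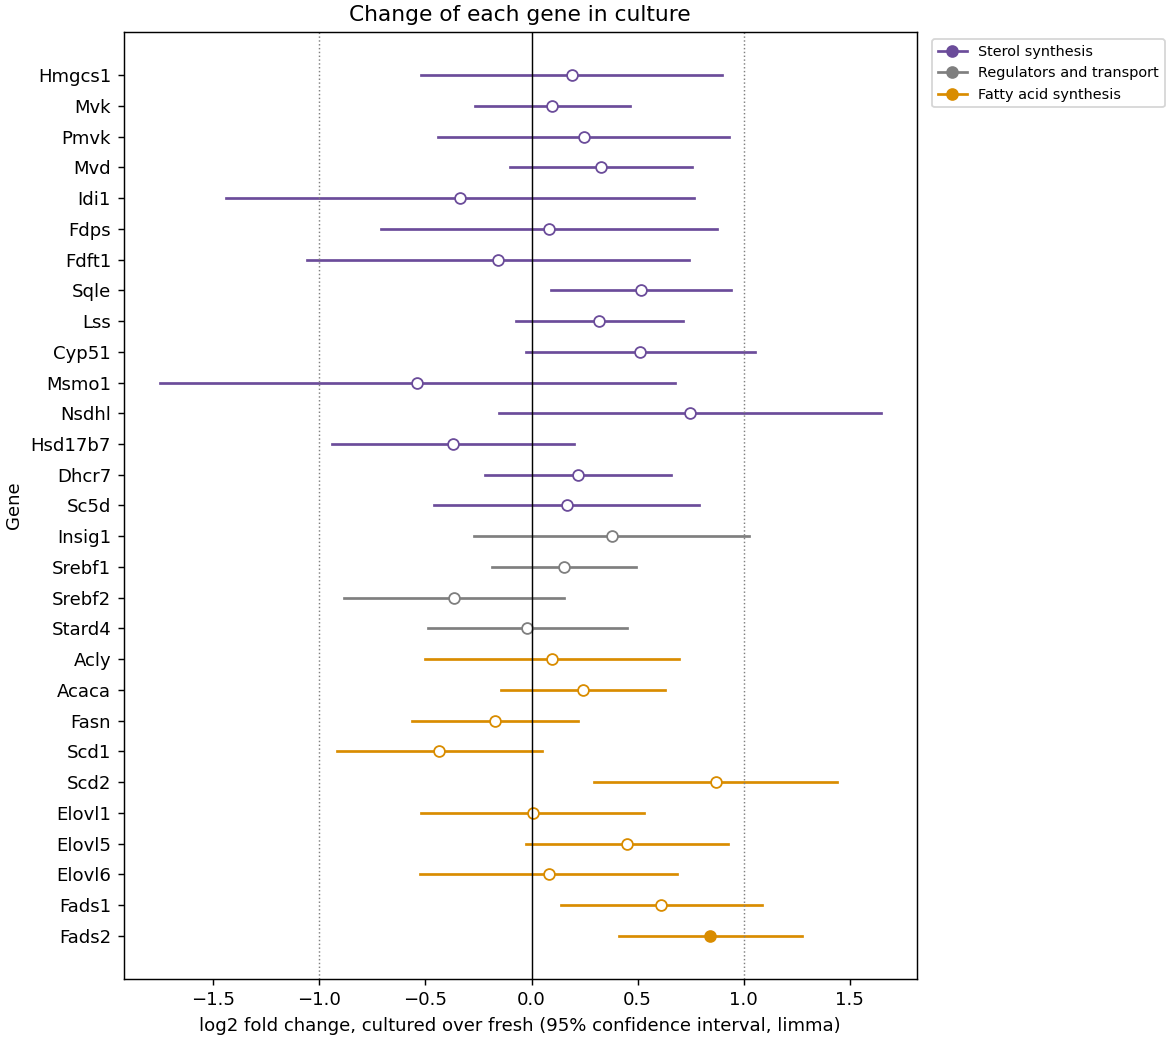
Log2 fold change of each gene, cultured over fresh (horizontal axis), with its 95% confidence interval from limma; the filled point passed the adjusted p of 0.05, open points did not, and dotted lines mark a 2-fold change. Fads2, at 0.84, is the 1 filled point, and most intervals span 0.

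In the mevalonate part of the sterol branch no gene passed the test. Hmgcs1 encodes the cytosolic synthase that makes HMG-CoA, the substrate of the rate-limiting step. It was at 5.74, 4.82 and 4.91 on cultured replicates 1, 2 and 3, against 5.43, 4.53 and 4.95 on fresh replicates 1, 2 and 3. The groups overlapped, with replicate 1 highest in each, and the log2 fold change was 0.19 ± 0.31 (SE) at a limma adjusted p of 0.811. Mvk and Pmvk phosphorylate mevalonate in turn, and Mvd decarboxylates the product. Their fold changes on the log2 scale were 0.10, 0.25 and 0.33.

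Idi1, the isomerase that interconverts the isoprene building blocks, differed widely between arrays of a group. Its levels were 7.01, 5.27 and 5.68 on cultured replicates 1, 2 and 3, against 7.04, 5.83 and 6.10 on fresh replicates 1, 2 and 3. Replicate 1 stood above the other two arrays in both groups, and the log2 fold change was -0.34 ± 0.47 (SE) at a limma adjusted p of 0.777. A further Idi1 probe set had the same order of arrays within each group, at 6.18, 4.44 and 4.72 in cultured cells and 6.00, 5.06 and 5.19 in fresh cells. Fdps, which joins isoprene units into farnesyl diphosphate, was at 6.28, 5.24 and 5.35 on cultured replicates 1, 2 and 3, against 6.07, 5.03 and 5.52 on fresh replicates 1, 2 and 3. Its groups overlapped almost wholly, at a log2 fold change of 0.08.

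From squalene onward the sterol genes had fold changes of both signs, again with none past the test. Fdft1, squalene synthase, was at 5.37, 3.67 and 4.83 on cultured replicates 1, 2 and 3, against 4.61, 4.78 and 4.96 on fresh replicates 1, 2 and 3. The low value on cultured replicate 2 widened its spread, and a further probe set gave a log2 fold change of 0.39 where the one used gave -0.16. Sqle, squalene epoxidase and a control point of the branch, was at 5.71, 5.35 and 5.11 on cultured replicates 1, 2 and 3, against 4.95, 4.71 and 4.96 on fresh replicates 1, 2 and 3. All 3 cultured values lay above all 3 fresh values, at 0.52 ± 0.18 (SE) on the log2 fold change scale and a limma adjusted p of 0.189. Lss, which closes the sterol ring system, was within background in both groups, at means of 2.81 ± 0.28 in cultured and 2.49 ± 0.08 in fresh cells (SD), so no fold change is given.

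Among the enzymes that turn lanosterol into cholesterol, Nsdhl, Cyp51 and Msmo1 had the largest differences in size. Nsdhl, a dehydrogenase acting in the removal of methyl groups, was at 6.07, 4.96 and 5.26 on cultured replicates 1, 2 and 3, against 5.24, 4.89 and 3.92 on fresh replicates 1, 2 and 3. The groups overlapped, and the log2 fold change of 0.75 ± 0.39 (SE) had a limma adjusted p of 0.380. It was 0.37 without fresh replicate 3 and 1.02 without fresh replicate 1. Cyp51, lanosterol demethylase, was at 5.09, 4.62 and 4.21 on cultured replicates 1, 2 and 3, against 4.35, 3.97 and 4.05 on fresh replicates 1, 2 and 3, at 0.51 ± 0.23 (SE) on the log2 fold change scale and a limma adjusted p of 0.310. Its lowest cultured value fell inside the fresh range. Msmo1, the sterol C4 methyl oxidase, was at 6.94, 5.40 and 5.51 on cultured replicates 1, 2 and 3, against 7.44, 5.70 and 6.31 on fresh replicates 1, 2 and 3. Its fold change was -0.54 ± 0.52 (SE) on the log2 scale at a limma adjusted p of 0.664, with replicate 1 far above the others in each group. The value was not stable, at -0.0536 after quantile normalization, -1.03 without cultured replicate 1 and -0.061 without fresh replicate 1. Hsd17b7, a ketosteroid reductase of the same steps, was at -0.37, and Dhcr7 and Sc5d, which act last, were at 0.22 and 0.17.

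At an unadjusted p of 0.05, 1 sterol gene (Sqle) and 3 fatty acid genes (Fads1, Fads2 and Scd2) were higher in culture and none was lower, where 8.58% of all genes were higher and 9.06% lower by that rule. The cultured values lay wholly above the fresh values for 2 of the 15 sterol genes, Sqle and Lss, and for 3 of the 10 fatty acid genes, against 12.9% of all genes tested (23.2% in either direction). No gene of either branch had its cultured values wholly below, against 10.3% of all genes.

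The sterol genes differed more between arrays of a group than most genes did, and cultured replicate 1 was high for all of them. Over the 15 sterol genes the median SD was 0.44 in cultured cells and 0.33 in fresh cells, against 0.23 and 0.21 for the 9818 genes above background in both groups. The 10 fatty acid genes had median SDs of 0.33 and 0.19. The median level was 4.70 for the sterol genes and 4.62 for the fatty acid genes, against 4.15 for the genes above background. Brighter genes differed more between the cultured arrays, and the SDs were not compared at matched levels. Cultured replicate 1 was the highest cultured array for 15 of 15 sterol genes and 9 of 10 fatty acid genes, against 56.6% of the genes above background. A further quantile normalization gives the arrays the same distribution. After it, cultured replicate 1 was highest for 10 of 15 sterol genes and 6 of 10 fatty acid genes. The share was 31.9% for the genes above background. Among the fresh arrays, replicate 1 was highest for 9 of 15 sterol genes, against 28.6% of the genes above background, and after quantile normalization for 11 of 15, against 36.8%.

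**Figure D3:**
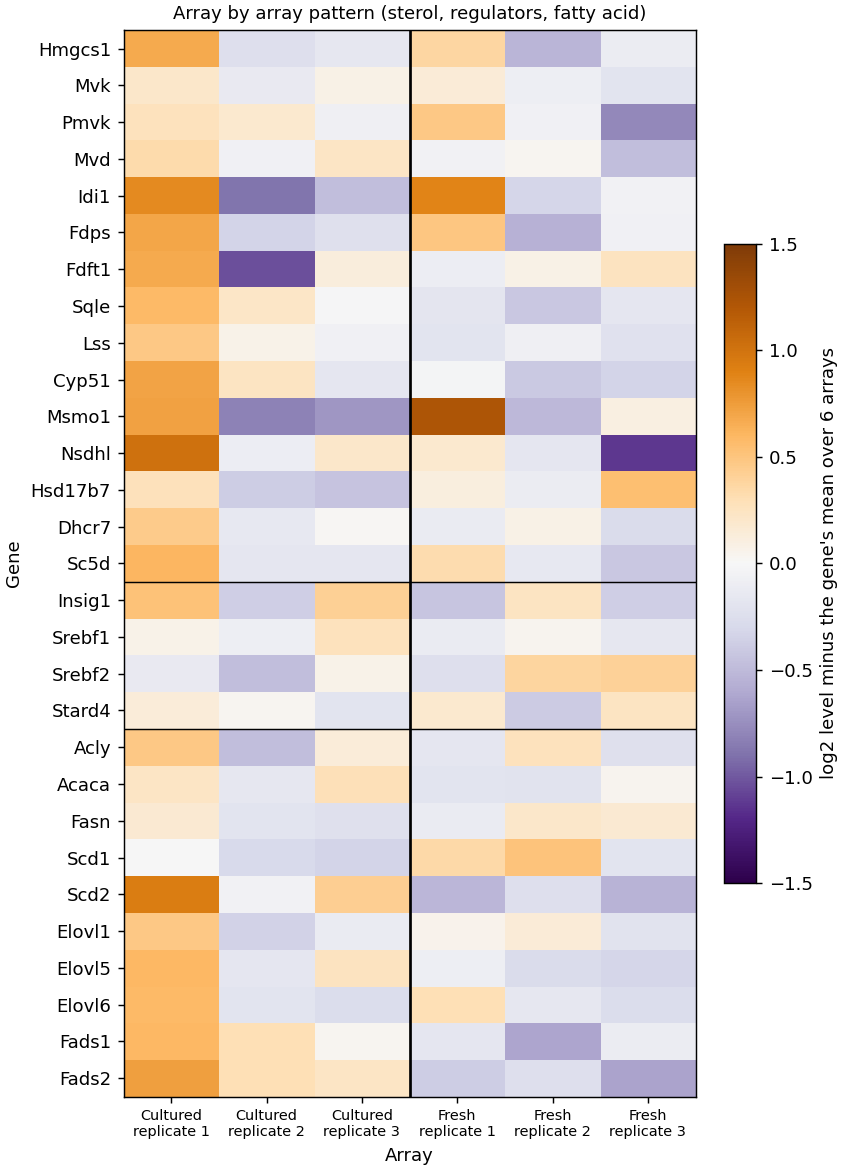
Log2 level of each gene on each array minus its own mean over the 6 arrays (colour), with the cultured arrays on the left, the fresh arrays on the right, and lines between sterol genes (top), regulators (middle) and fatty acid genes (bottom). Cultured replicate 1 is above the mean for all genes except Scd1 and Srebf2, and fresh replicate 1 is high for Msmo1, Idi1, Fdps and Hmgcs1.

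Relative to each gene's own group mean, the median of the sterol genes was 0.46, -0.25 and -0.25 in cultured replicates 1, 2 and 3, and 0.23, -0.06 and -0.15 in fresh replicates 1, 2 and 3. The fatty acid genes shared the cultured part of this pattern, at 0.34, -0.26 and -0.12, but on fresh replicates 1, 2 and 3 they were at 0.04, 0.14 and -0.14. The cultured part was not particular to these branches. On cultured replicates 1, 2 and 3 the genes above background were at 0.13, -0.15 and 0.01, and genes of fatty acid oxidation at 0.22, -0.27 and -0.06. After quantile normalization the sterol genes were at 0.28, -0.05 and -0.24 there. The fatty acid genes were then at 0.14, -0.01 and -0.13, and the genes above background at -0.0205, 0.0157 and 0.0024. A list of 8 further genes held Ebp, Erg28, Idi2 and Tm7sf2 of sterol synthesis. It also held Cnbp, Dhdds, Ggps1 and Nus1, which are not enzymes of the route to cholesterol. The median of this list was 0.40, -0.34 and 0.01 in cultured replicates 1, 2 and 3. In fresh replicates 1, 2 and 3 it was -0.08, -0.21 and 0.28, so the list was high on cultured replicate 1 but not on fresh replicate 1. By the limma test 0.953% of all genes were higher in culture. Of 7 genes that mark dividing cells 4 rose by the same test. Their median log2 level was 6.91, 5.03 and 5.11 on cultured replicates 1, 2 and 3, against 3.50, 3.70 and 3.75 on fresh replicates 1, 2 and 3, so it was highest on cultured replicate 1 and higher on every cultured array than on any fresh array. Pcna, a clamp of DNA replication, was the 1 marker of the 7 with a fold change below 0, at -1.10 on the log2 scale and not past the test. Summed on the linear scale, where Pcna was the brightest, the 7 genes were at 1031.6, 349.7 and 404.4 on cultured replicates 1, 2 and 3. The fresh sums were 580.8, 585.7 and 650.9, so by this measure cultured replicates 2 and 3 lay below every fresh array. Genes of muscle differentiation, summed in the same way, were highest on cultured replicate 3, at 3499.1 against 960.9 and 923.2 on cultured replicates 1 and 2, and 355 to 429.1 on the fresh arrays. The fibroblast marker Dcn was at 8.53, 7.78 and 5.86 on fresh replicates 1, 2 and 3. The part of these differences in the sterol pattern was not tested.

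The start sites of these genes were examined in the RefSeq promoter windows of build GRCm38.p6, which run from 250 bases before the start to 50 after it, read in the direction of the gene. Windows were found for 22 of the 29 genes. The search was for the sterol regulatory element TCACNCCAC, the NF-Y box CCAAT, the Sp1 box GGGCGG and the E-box CACGTG, each on both strands. Of 28 windows, 2 pairs of matches shared bases. The NF-Y box, which binds a factor that works beside SREBP, was present for 12 of 12 sterol genes with a window, against 41.7% of the 15614 measured genes with one, and for 4 of 7 fatty acid genes. The Sp1 box was present for 11 of 12 sterol genes and 3 of 7 fatty acid genes, against 52.9% of the measured genes. The E-box was present for 3 of 12 sterol genes and 1 of 7 fatty acid genes, against 9.5%. The sterol regulatory element in this spelling was present for 1 of the 22 genes, Hmgcs1, against 1.4% of measured genes. Its match began 137 bases before the start. A match is a description of the letters and not of binding.

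Windows are shown for Hmgcs1, which holds the sterol regulatory element, for Idi1 and Msmo1, which like Hmgcs1 were highest on replicate 1 of both groups, and for Fads2, the gene past the test. No gene past the test held the sterol regulatory element, so these were chosen after the values were seen. They lie at chr13:119690101-119690400 on the + strand, chr13:8885356-8885655 on the + strand, chr8:64733529-64733828 on the - strand and chr19:10101454-10101753 on the - strand. Capitals mark every match to the 4 motifs.
Hmgcs1: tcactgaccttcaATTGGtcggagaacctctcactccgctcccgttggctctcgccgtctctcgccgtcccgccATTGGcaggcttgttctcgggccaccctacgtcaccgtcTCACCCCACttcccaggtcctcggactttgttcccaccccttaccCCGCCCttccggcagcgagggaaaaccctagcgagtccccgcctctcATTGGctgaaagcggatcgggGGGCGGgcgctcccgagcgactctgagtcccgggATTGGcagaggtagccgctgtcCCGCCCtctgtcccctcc
Idi1: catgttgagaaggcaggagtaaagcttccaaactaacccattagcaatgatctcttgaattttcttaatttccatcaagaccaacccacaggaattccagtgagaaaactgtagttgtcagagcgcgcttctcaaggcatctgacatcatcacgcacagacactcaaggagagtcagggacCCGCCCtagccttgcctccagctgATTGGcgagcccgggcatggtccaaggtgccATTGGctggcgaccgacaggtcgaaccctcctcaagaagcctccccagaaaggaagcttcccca
Msmo1: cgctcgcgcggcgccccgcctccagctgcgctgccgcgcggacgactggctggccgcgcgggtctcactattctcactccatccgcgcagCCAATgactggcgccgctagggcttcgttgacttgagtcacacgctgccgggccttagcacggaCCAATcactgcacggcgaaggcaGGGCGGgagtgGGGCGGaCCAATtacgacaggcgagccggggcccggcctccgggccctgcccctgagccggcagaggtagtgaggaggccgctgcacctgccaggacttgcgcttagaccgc
Fads2: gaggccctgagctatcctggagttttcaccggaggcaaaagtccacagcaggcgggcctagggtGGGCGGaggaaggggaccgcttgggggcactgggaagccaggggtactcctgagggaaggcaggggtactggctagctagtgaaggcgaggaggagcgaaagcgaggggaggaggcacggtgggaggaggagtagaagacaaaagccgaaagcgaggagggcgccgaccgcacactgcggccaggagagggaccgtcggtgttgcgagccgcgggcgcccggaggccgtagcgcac
The Hmgcs1 window holds 1 sterol regulatory element, 4 NF-Y boxes and 3 Sp1 boxes. The Idi1 window holds 2 NF-Y boxes and 1 Sp1 box, and the Msmo1 window 3 and 2. The Fads2 window holds 1 Sp1 box and none of the others.

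None of the 4 regulators passed the test. Srebf2 encodes SREBP-2, which mainly drives the sterol branch. It was at 5.26, 4.92 and 5.45 on cultured replicates 1, 2 and 3, against 5.15, 5.78 and 5.79 on fresh replicates 1, 2 and 3, a log2 fold change of -0.36 ± 0.22 (SE) at a limma adjusted p of 0.459. Fresh replicate 1, where many sterol genes were high, had the lowest fresh Srebf2 value. Srebf1 encodes SREBP-1, which mainly drives fatty acid genes, and was at 4.35, 4.19 and 4.54 on cultured replicates 1, 2 and 3, against 4.17, 4.33 and 4.13 on fresh replicates 1, 2 and 3. Its groups overlapped, at a log2 fold change of 0.15 ± 0.15 (SE) and a limma adjusted p of 0.661. Stard4, which carries cholesterol between membranes, was at 4.19, 4.08 and 3.86 on cultured replicates 1, 2 and 3, against 4.24, 3.66 and 4.30 on fresh replicates 1, 2 and 3. At a log2 fold change of -0.02 ± 0.20 (SE) and a limma adjusted p of 0.974 the groups overlapped.

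Insig1, an anchor of the SREBP complex that is itself induced by SREBP, did not pass, whereas its relative Insig2 fell 8.08-fold. Insig1 was at 4.93, 4.04 and 4.82 on cultured replicates 1, 2 and 3, against 3.97, 4.64 and 4.03 on fresh replicates 1, 2 and 3, a log2 fold change of 0.38 ± 0.28 (SE) at a limma adjusted p of 0.552. Insig2, which is not one of the 29 genes and belongs to the list of SREBP pathway genes, was at 4.48, 3.57 and 4.29 on cultured replicates 1, 2 and 3, against 7.18, 7.02 and 7.19 on fresh replicates 1, 2 and 3. The Insig2 groups were far apart, and its log2 fold change of -3.02 ± 0.24 (SE) had a limma adjusted p of 0.000372. After quantile normalization the log2 fold change of Insig2 was -2.70. The within-array difference of Insig1 and Insig2, a contrast chosen after the values were seen, was 0.44, 0.47 and 0.52 on cultured replicates 1, 2 and 3, against -3.20, -2.38 and -3.16 on fresh replicates 1, 2 and 3, a change of 3.39 on the log2 scale.

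The fatty acid branch held the gene past the test. Fads2 was at 5.05, 4.61 and 4.54 on cultured replicates 1, 2 and 3, against 3.93, 4.07 and 3.67 on fresh replicates 1, 2 and 3. The groups did not overlap, and the log2 fold change was 0.84 ± 0.19 (SE) with a limma adjusted p of 0.0478. The call was a narrow one: it was lost without any 1 of the 6 arrays, at adjusted p between 0.0570 and 0.168, while the log2 fold change stayed between 0.69 and 0.94. Fads1, the delta-5 desaturase and the neighbouring gene on chromosome 19, was at 4.33, 4.03 and 3.77 on cultured replicates 1, 2 and 3, against 3.56, 3.11 and 3.63 on fresh replicates 1, 2 and 3. Its cultured values too lay above the fresh ones, at a log2 fold change of 0.61 ± 0.20 (SE) and a limma adjusted p of 0.168.

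The stearoyl-CoA desaturases, which place the first double bond in saturated fatty acids, had fold changes of opposite sign, neither past the test. Scd2 was at 6.00, 5.02 and 5.50 on cultured replicates 1, 2 and 3, against 4.55, 4.83 and 4.53 on fresh replicates 1, 2 and 3. The groups did not overlap, and its log2 fold change of 0.87 ± 0.25 (SE), a 1.83-fold difference, had a limma adjusted p of 0.109. Without cultured replicate 2, Scd2 passed at 1.11 with a limma adjusted p of 0.0314, and after quantile normalization at 1.05 with 0.00285. Scd1 was at 5.04, 4.75 and 4.71 on cultured replicates 1, 2 and 3, against 5.39, 5.56 and 4.85 on fresh replicates 1, 2 and 3. Its groups overlapped at fresh replicate 3, at -0.43 ± 0.21 (SE) on the log2 fold change scale and a limma adjusted p of 0.336. These 2 genes lie on chromosome 19 with 1 protein-coding gene between them, and probes shared between their related sequences were not examined.

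A difference of 2 genes within an array is not moved by a shift common to all probe sets of that array. The shifts on cultured replicates 2 and 3 were larger for brighter genes, so a pair at unlike levels, such as Insig1 and Insig2, is not free of them. After quantile normalization the change was 3.10 for the Insig pair and 1.31 for the Scd pair. The within-array difference of Scd2 and Scd1 was 0.96, 0.27 and 0.79 on cultured replicates 1, 2 and 3, against -0.84, -0.72 and -0.32 on fresh replicates 1, 2 and 3, a change of 1.30 on the log2 scale with no overlap of the groups. For Fads2 and Fads1 the change was 0.23, with overlapping groups. A two-sided exact permutation test over the 20 regroupings of the arrays gave p = 0.10 for the Scd and the Insig pair, the smallest that this design allows, and 0.50 for the Fads pair. Adjusted over the 3 pairs these were 0.15, 0.15 and 0.50. With so few regroupings no pair could have passed, whatever its values. The permutation test therefore cannot decide whether these within-array differences changed in culture.

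**Figure D4:**
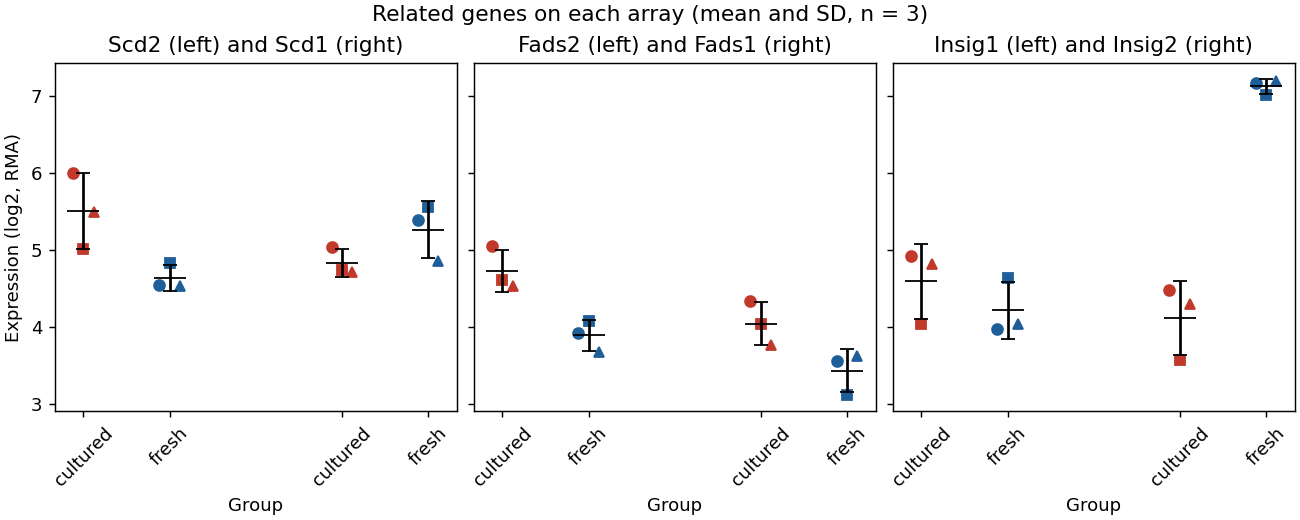
Log2 expression of Scd2 and Scd1, Fads2 and Fads1, and Insig1 and Insig2 on the cultured (red) and fresh (blue) arrays, with circles, squares and triangles for replicates 1, 2 and 3 and bars for the mean and SD (n = 3). The cultured points lie above the fresh points for Scd2, Fads2 and Fads1 and below them for Insig2, and they overlap for Scd1 and Insig1.

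No enzyme that makes the fatty acid chain itself passed the test. Acly, which supplies cytosolic acetyl-CoA, was at 0.10 ± 0.26 (SE) on the log2 fold change scale. Acaca, the carboxylase of the committed step, was at 0.24 ± 0.17, from levels just above background at 3.47 ± 0.24 in cultured and 3.23 ± 0.14 in fresh cells (SD). A further Acaca probe set was within background in both groups, at means of 2.30 in cultured and 2.19 in fresh cells. Fasn, fatty acid synthase, was at 5.09, 4.72 and 4.69 on cultured replicates 1, 2 and 3, against 4.80, 5.13 and 5.09 on fresh replicates 1, 2 and 3. Its fold change of -0.17 ± 0.17 (SE) on the log2 scale was 1 of 2 below 0 in the branch, with Scd1. Among the elongases, Elovl5, which acts on polyunsaturated chains, was at 4.62, 3.86 and 4.28 on cultured replicates 1, 2 and 3, against 3.94, 3.76 and 3.71 on fresh replicates 1, 2 and 3. Its log2 fold change of 0.45 ± 0.21 (SE) had a limma adjusted p of 0.312, and 1 cultured value lay inside the fresh range. Elovl6, which lengthens saturated chains, and Elovl1, which makes very long chains, were at 0.08 and 0.01.

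Of 24 further fatty acid genes 2 rose and none fell, where 0.953% of all genes were higher and 3.37% lower. Me1, malic enzyme, which supplies reducing power for fatty acid synthesis, was at 5.44, 4.35 and 4.58 on cultured replicates 1, 2 and 3, against 2.81, 3.47 and 2.99 on fresh replicates 1, 2 and 3. The fresh mean was within background, and the cultured mean was 3.10 times the fresh background level on the linear scale. The limma fold change of Me1 was 3.25, with a 95% confidence interval of 2.00 to 5.29, at an adjusted p of 0.0196. Hsd17b12, a reductase of the elongation cycle, rose from a fresh mean within background to 1.73 times the fresh background level. Its limma fold change was 2.01, with a 95% confidence interval of 1.49 to 2.71, at an adjusted p of 0.0245. Of the list of 8 further genes that held Ebp and Cnbp, and of 8 genes of sterol uptake and transport, limma called none. At an unadjusted p of 0.05 it had 4 and 1 lower and none higher. The 4 were Ebp and Tm7sf2 of sterol synthesis, with Cnbp and Ggps1, which are not enzymes of the route to cholesterol. By that unadjusted rule 9.06% of all genes were lower and 8.58% higher.

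Of 8 genes of the liver X receptor pathway and sterol efflux, 1 fell, Apoe, a lipoprotein component that carries cholesterol out of cells. It was at 5.35, 4.23 and 5.69 on cultured replicates 1, 2 and 3, against 9.13, 9.08 and 9.01 on fresh replicates 1, 2 and 3, a 15.8-fold fall at a limma adjusted p of 0.000611. After quantile normalization its log2 fold change was -3.41, against -3.98 on the deposited values. Of 17 genes of glycerolipid synthesis and storage 2 fell and none rose. These were Pnpla2, the lipase that starts the breakdown of stored fat, at a log2 fold change of -1.13 ± 0.16 (SE) and a limma adjusted p of 0.00750, and Agpat5, an acyltransferase, at -1.45 ± 0.25 and 0.0168. Of 21 genes of fatty acid oxidation and its control 1 fell, Pdk4, at -2.13 ± 0.46 with a limma adjusted p of 0.0457. Of 6 measured SREBP pathway genes 1 fell, Insig2. Beside the counts of these lists, 3.37% of all genes were lower and 0.953% higher by the same test. Insig2, Apoe and Pnpla2 kept their calls without any 1 of the arrays, whereas Pdk4, Me1, Hsd17b12 and Agpat5 lost theirs without some arrays, at adjusted p of up to 0.183, 0.0948, 0.0934 and 0.0833.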

How the data were processed

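Per the labels' protocols, Trizol was used for RNA extraction and an Affymetrix kit for biotin labelling. The values deposited by the authors are on the log2 scale, for 35556 probe sets and 6 arrays. Per the submitters' processing notes they were made with RMA and the package oligo, with no version stated. RMA summarises probes after background correction and quantile normalization and compresses differences near background. The deposited arrays nevertheless did not share a distribution at the bright end. The top percentile of values began at 12.01, 9.43 and 9.96 on cultured replicates 1, 2 and 3. On fresh replicates 1, 2 and 3 it began at 11.94, 12.18 and 11.93. Whether all arrays were normalized together was not tested. No scanner files were used here, and no genome build is given in the sources used here.

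Through the platform annotation, with symbols updated by gene identifier, 21789 probe sets map to 1 gene, 1621 to several genes and 12146 to no listed gene. For each of 19938 genes the probe set with the largest average was used. Cultured and fresh arrays were compared with limma 3.58.1 in R 4.3.3 (lmFit and eBayes, group as the only term, no filter), with Benjamini-Hochberg adjustment over all genes, and the code was tested on simulated data. The number of arrays limits the precision.

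The 29 genes and the other gene lists were chosen with earlier results of these data known. Values by array were given for genes past the test, the 4 genes of each branch with the largest fold changes and the 4 regulators, and of the other lists the genes past the test were named. Hmgcs1, Idi1, Fdps, Fdft1, Fasn and Scd1 were added after their values were seen. Alternatives were a replicate block, quantile and cyclic loess normalization, median centring, a filter on dim genes, the mean of all probe sets, a trended and robust prior, array weights and leaving out each array. The deviations of same-numbered arrays had correlations of -0.02, -0.07 and 0.05 over 9818 genes. With 3 arrays a group, and labels that tie no array to a mouse, these cannot show whether the samples were paired.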

Additional observations from a re-analysis of the deposited data

How the results depend on the processing

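With 3 arrays a group, differences near the spread between arrays stay under the threshold, and levels near background are compressed. Over 14 alternatives, 370 of 405 values for the 29 genes kept their direction and their side of the threshold, 7 lost the call, 4 gained it and 24 changed sign, 18 of those with 1 array left out. With the replicate block, 101 genes were higher and the Fads2 call was lost (limma adjusted p of 0.0755, log2 fold change 0.84), leaving 0 fatty acid genes higher; Me1 and Pdk4 also lost theirs, at 0.0591 and 0.0945. Genes higher numbered 698 after quantile normalization, 498 after cyclic loess and 585 with array weights, against 190, and genes lower numbered 1017 after cyclic loess and 1157 with array weights, against 671. Under each of these 3 settings 2 fatty acid genes, Fads2 and Scd2, were higher. With 1 array left out, 51 to 279 genes were higher, 380 to 1278 were lower and 0 to 1 fatty acid genes were higher. The lone call of that range was Scd2, without cultured replicate 2.

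None of the fold changes that changed sign passed the test. They were Idi1 at 0.12 after quantile normalization, Elovl1 at -0.057 with arrays centred on their medians, Fdft1 at 0.12 as the mean of its probe sets, and Fdps, Elovl1 and Elovl6 at -0.0049, -0.0396 and -0.0385 with array weights. With 1 array left out, log2 fold changes ranged from -0.10 to 0.42 for Hmgcs1, -0.24 to 0.35 for Fdps, -0.0919 to 0.37 for Sc5d, -0.12 to 0.36 for Acly and -0.23 to 0.18 for Elovl1. They ranged from -0.19 to 0.25 for Elovl6, -0.85 to 0.0205 for Idi1, -0.53 to 0.32 for Fdft1, -0.22 to 0.10 for Stard4 and -0.0805 to 0.54 for Pmvk. The cause was not tested. The branch medians ranged from 0.02 to 0.35 for sterol genes and 0.04 to 0.37 for fatty acid genes with 1 array left out, in each case lowest without cultured replicate 1.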
